A study of Homo sapiens with 4 samples.

Results

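Plasminogen activators, matrix metalloproteinases and their inhibitors were examined in 2 human pancreatic cancer cell lines treated with cannabichromene (CBC), a non-psychotropic cannabinoid of hemp. The 9 genes were taken by symbol from the 58233 gene identifiers of the count table. They were the plasminogen activators PLAU and PLAT, the urokinase receptor PLAUR, the metalloproteinases MMP1, MMP2 and MMP14, and the tissue inhibitors TIMP1, TIMP2 and TIMP3. Both lines, PANC-1 and MIA PaCa-2, are long established and carry the label WT. Messenger RNA was sequenced 24 h after PBS or CBC in 1 library per line and treatment, 4 libraries in all. The dose of CBC was 35 μM for MIA PaCa-2 and 30 μM for PANC-1, so line and dose cannot be told apart where the responses differ. The methods give acetonitrile as the solvent of CBC and speak of a vehicle control for each line, while the sample labels name PBS for the controls. CBC and its solvent cannot be told apart if the controls lacked acetonitrile.

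Urokinase (PLAU) and tissue plasminogen activator (PLAT) cut plasminogen to plasmin, a broad protease of fibrin and matrix proteins. The urokinase receptor (PLAUR) holds urokinase on the cell surface, and plasmin in turn activates several metalloproteinase precursors. MMP1 cuts fibrillar collagen, MMP2 cuts denatured and basement membrane collagen, and the membrane-anchored MMP14 activates the MMP2 precursor with the help of TIMP2. TIMP1, TIMP2 and TIMP3 block active metalloproteinases. In pancreatic cancer these enzymes are studied for their part in invasion and in the turnover of a dense stroma.

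The libraries held 21742775 to 27903667 counts on genes, and 3 counts, the limit that a count of 0 allows, came to 0.11 to 0.135 CPM (counts scaled to a common library size by TMM, the trimmed mean of M-values). All 95% intervals in the text are exact binomial intervals of a ratio of counts. They cover counting error only, and with 1 library per condition no difference within a line or between 2 libraries has a replicate check. In bulk RNA a change per cell cannot be told apart from a change in which cells survived. The keratins KRT8, KRT18 and KRT19 and vimentin (VIM) were read in every library with at least 3976 counts. EPCAM and CDH1 had at most 1 count in MIA PaCa-2. Fibroblast markers summed to 3.24 and 1.21 CPM in MIA PaCa-2 without and with CBC and to 136 and 47.1 CPM in PANC-1, where COL1A1 made up nearly all of it, and DCN, LUM and FAP had no count in any library.

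The stretches of 250 bases before the RefSeq start (GRCh38.p14) are shown for PLAUR, the gene called for CBC further on, and for its ligand PLAU, MMP14 and TIMP1 beside it. The 7 letters TGANTCA, a consensus site of AP-1 factors that regulate many protease genes, were searched, and a match is in capitals. The pattern reads the same on both strands.
PLAUR, chr19:43670170-43670419, minus strand: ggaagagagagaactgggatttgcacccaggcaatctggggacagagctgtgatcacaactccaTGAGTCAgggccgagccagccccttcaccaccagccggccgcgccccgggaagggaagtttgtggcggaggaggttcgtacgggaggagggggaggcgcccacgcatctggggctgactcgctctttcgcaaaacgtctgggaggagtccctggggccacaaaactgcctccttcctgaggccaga
PLAU, chr10:73910882-73911131, plus strand: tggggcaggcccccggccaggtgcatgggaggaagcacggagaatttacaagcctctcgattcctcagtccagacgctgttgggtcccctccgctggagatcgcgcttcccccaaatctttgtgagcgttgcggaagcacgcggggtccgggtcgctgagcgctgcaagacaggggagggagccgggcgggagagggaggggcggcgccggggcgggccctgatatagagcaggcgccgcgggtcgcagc
MMP14, chr14:22836335-22836584, plus strand: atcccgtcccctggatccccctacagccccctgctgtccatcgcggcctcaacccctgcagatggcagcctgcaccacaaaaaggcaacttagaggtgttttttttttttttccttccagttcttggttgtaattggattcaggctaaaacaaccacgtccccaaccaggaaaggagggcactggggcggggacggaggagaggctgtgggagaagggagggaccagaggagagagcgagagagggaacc
TIMP1, chrX:47582186-47582435, plus strand: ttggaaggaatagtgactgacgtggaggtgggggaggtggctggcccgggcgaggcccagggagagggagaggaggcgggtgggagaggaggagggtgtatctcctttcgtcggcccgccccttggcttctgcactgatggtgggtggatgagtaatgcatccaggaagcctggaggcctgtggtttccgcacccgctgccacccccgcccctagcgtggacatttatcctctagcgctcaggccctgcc
Of 35116 such stretches of all genes in the promoter table, 2308 (6.57%) held the pattern. PLAUR held 1 match, TGAGTCA, which began 186 bases before the start. No match was in the stretches of PLAU, whose other listed start was searched as well, or of MMP14, TIMP1 and TIMP3. MMP1, MMP2, PLAT and TIMP2 were not listed. Variants of the pattern were not searched, so the lack of a match does not mean the lack of an AP-1 site. A match here is a run of letters, and binding was not measured.

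The first comparison set the controls of the lines side by side. The lines differed in the levels of these genes, with MMP1, PLAUR, TIMP1 and TIMP2 higher in MIA PaCa-2 and PLAU, MMP2 and MMP14 higher in PANC-1. Of the 9 genes, 7 reached 1 CPM in at least 1 control, and these 7 differed more than 2-fold. Among all 14805 genes with that level, 41.9% did, with 24.0% of genes higher in PANC-1. MMP2 reached that level through PANC-1 alone. The control libraries enter this comparison and the one with CBC alike. Across both treatments, edgeR's quasi-likelihood test with treatment as a block called the same 7 genes at a Benjamini-Hochberg adjusted p under 0.05, where 46.7% of 16381 genes were called, 25.1% higher and 21.7% lower in PANC-1. Each gene has 1 residual degree of freedom in this test, so its standard error and p-value draw on the variance of the other genes.

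MMP1 (ENSG00000196611, chromosome 11 of GRCh38, 102789401 to 102798160) set the lines apart among the genes read in both. It had 4354 counts in the MIA PaCa-2 control and 131 counts in the PANC-1 control, or 196 and 5.76 CPM. The level in MIA PaCa-2 was 34.0-fold higher (interval 28.6 to 40.7). Over both treatments the log2 difference of PANC-1 from MIA PaCa-2 was -4.17 (standard error 0.44, adjusted p = 0.000246 in edgeR's quasi-likelihood test). PLAUR (ENSG00000011422, chromosome 19, 43646095 to 43670547) had 562 and 167 counts in the same controls, a 3.44-fold higher level in MIA PaCa-2 (2.89 to 4.11). Over both treatments its log2 difference was -2.65 (standard error 0.40, adjusted p = 0.00134, edgeR), and with treatment left out of the model the adjusted p was 0.0561.

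PANC-1 held the other enzymes. MMP2 (ENSG00000087245, chromosome 16, 55389700 to 55506691) had no count in either MIA PaCa-2 library and 1469 counts in the PANC-1 control. Its level was higher in PANC-1, with a lower interval limit of 389-fold. Against the floor of 3 counts in the MIA PaCa-2 library the difference was 479-fold, without counting error. MMP14 (ENSG00000157227, chromosome 14, 22836560 to 22849041) had 67 counts in the MIA PaCa-2 control and 912 in the PANC-1 control, a 13.3-fold difference (10.4 to 17.3). PLAU (ENSG00000122861, chromosome 10, 73909177 to 73917496) had 2696 and 9953 counts and was 3.61-fold higher in PANC-1 (3.46 to 3.77). The adjusted p over both treatments was 1.63e-05 for MMP2, 8.45e-05 for MMP14 and 0.000183 for PLAU in edgeR's quasi-likelihood test. The fibroblast marker sum was higher in the same line. COL1A1 had 11 counts in the MIA PaCa-2 control and 3037 in the PANC-1 control, and PDGFRB had 0 and 54. COL3A1 went the other way (61 and 0 counts), and DCN, LUM and FAP had no count. Whether this bears on MMP2, MMP14 and PLAU was not tested.

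The inhibitors went with MIA PaCa-2. TIMP1 (ENSG00000102265, chromosome X, 47582408 to 47586789) had 11781 counts in the MIA PaCa-2 control and 5089 in the PANC-1 control, or 530 and 224 CPM, which is 2.37-fold higher in MIA PaCa-2 (2.29 to 2.45). TIMP2 (ENSG00000035862, chromosome 17, 78852977 to 78925387) had 14417 and 3869 counts, a 3.81-fold difference (3.68 to 3.95). In edgeR's quasi-likelihood test the adjusted p over both treatments was 0.000768 for TIMP1 and 0.000297 for TIMP2.

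To compare genes with each other, counts were divided by exon length and scaled to the same total in each library (TPM). TIMP1 led in the MIA PaCa-2 control at 1381 TPM, rank 55 of all genes, ahead of TIMP2 at 394, MMP1 at 270, PLAU at 155, PLAUR at 21.4 and MMP14 at 2.46 TPM. In the PANC-1 control TIMP1 at 585 and PLAU at 561 TPM stood close together, ahead of TIMP2 at 103, MMP2 at 51.8, MMP14 at 32.8, MMP1 at 7.95 and PLAUR at 6.22 TPM. MMP1 made up 99.1% of the summed TPM of the 3 metalloproteinases in the MIA PaCa-2 control and 8.59% in the PANC-1 control, where MMP2 made up 56.0%. These shares describe single libraries.

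**Figure D1:**
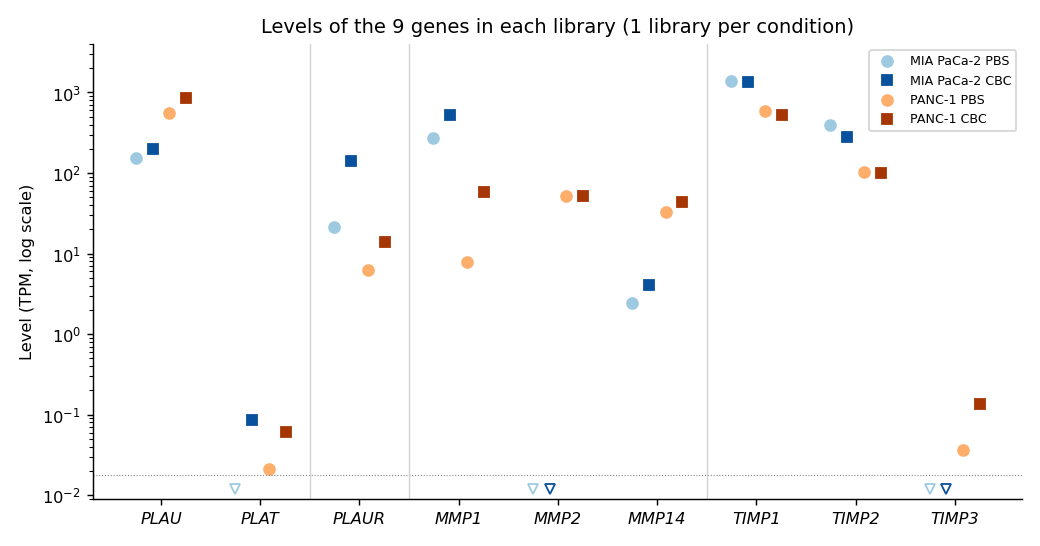
Level of each of the 9 genes in TPM on a log scale, with 1 point per library for MIA PaCa-2 (blue) and PANC-1 (orange) cells given PBS (circles) or CBC (squares), and open triangles under the dotted line for libraries with no count. MMP1 and PLAUR sit higher in MIA PaCa-2, PLAU, MMP2 and MMP14 sit higher in PANC-1, and PLAT and TIMP3 stay under 0.2 TPM.

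Messages of PLAT and TIMP3 were too scarce for a direction. PLAT (ENSG00000104368, chromosome 8, 42174718 to 42207709) had 0 counts in MIA PaCa-2 given PBS, 4 with CBC, 1 in the PANC-1 control and 3 with CBC. TIMP3 (ENSG00000100234, chromosome 22, 32801705 to 32863041) had no count in either MIA PaCa-2 library, 1 in the PANC-1 control and 4 with CBC. The intervals of the PANC-1 ratios ran from 0.200 to 131 for PLAT and from 0.329 to 164 for TIMP3. Neither gene reached 1 CPM, so no change with CBC and no difference between the lines could be read.

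The second comparison set each CBC library against the control of its own line. The urokinase receptor and MMP1 had the largest ratios, urokinase and MMP14 smaller ones above 1, and TIMP1 and TIMP2 ratios below 1 in both lines. Past a 2-fold change stood 1 of the 6 genes with at least 1 CPM in MIA PaCa-2 (PLAUR) and 1 of the 7 in PANC-1 (MMP1), each higher with CBC. Among all genes with that level 20.5% passed 2-fold in MIA PaCa-2 and 14.7% in PANC-1, with 11.5% higher and 8.97% lower in the former and 7.71% higher and 7.03% lower in the latter. The median log2 fold change of the genes read was 0.39 in MIA PaCa-2 and 0.24 in PANC-1, against -0.01 and 0.02 over all genes. With the lines as the only replication of CBC and the line as a block, edgeR's quasi-likelihood test called 1 of 7 genes, where 4.71% of 16381 genes were called, 2.26% higher and 2.45% lower.

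PLAUR was the gene called, and it rose with CBC. Its counts went from 562 to 3724 in MIA PaCa-2 and from 167 to 402 in PANC-1, or from 25.3 to 151 CPM and from 7.34 to 14.7 CPM. The ratio was 5.96 (5.45 to 6.52) in MIA PaCa-2 and 2.0 (1.67 to 2.41) in PANC-1, where the fitted log2 fold change of 0.99 lay just under the 2-fold line. Across both lines the log2 fold change was 1.83 (standard error 0.39, adjusted p = 0.0415, edgeR's quasi-likelihood test), higher in 2 of 2 lines. That standard error draws on the variance of other genes, while the fitted log2 fold changes of the lines were 2.57 and 0.99. Over the alternatives that kept the line in the model, the adjusted p ran from 2.31e-08 to 0.0372, and without the line as a block it was 1 in edgeR.

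PLAU, the ligand of this receptor, had smaller ratios. It went from 2696 to 3469 counts in the MIA PaCa-2 line and from 9953 to 16252 in PANC-1. The ratios were 1.16 (1.10 to 1.22) and 1.36 (1.33 to 1.39). The log2 fold change across both lines was 0.33 with a standard error of 0.18, which the test did not call (adjusted p = 0.344, edgeR). PANC-1 had the lower PLAUR level and the higher PLAU level under both treatments.

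Among the metalloproteinases, MMP1 had the largest ratio in PANC-1. Its counts went from 131 to 1011 there and from 4354 to 8498 in MIA PaCa-2. The ratio was 6.42 (5.35 to 7.76) in PANC-1 and 1.75 (1.69 to 1.82) in MIA PaCa-2. Across both lines the log2 fold change of MMP1 was 1.71 (standard error 0.40), and its adjusted p of 0.0576 in edgeR's quasi-likelihood test missed the threshold of 0.05, although the gene was higher in 2 of 2 lines. DESeq2 with the same model gave an adjusted p of 0.00879 for MMP1, and edgeR without its filter on low counts gave 8.02e-10. With library totals edgeR gave 0.0559, and without the line as a block it gave an adjusted p of 1 and a log2 fold change of 0.94.

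MMP14 had smaller ratios above 1, and MMP2 one below 1 in PANC-1. MMP14 went from 67 to 111 counts in the MIA PaCa-2 line and from 912 to 1295 in PANC-1. Its ratios were 1.49 (1.09 to 2.05) and 1.18 (1.08 to 1.29), with an adjusted p of 0.459 across both lines in edgeR's quasi-likelihood test. MMP2 had 1469 and 1582 counts in PANC-1 without and with CBC, a ratio of 0.896 (0.834 to 0.963). In TPM it was 51.8 and 52.6, so the direction of this small change depends on the scaling. The edgeR test of MMP2 (adjusted p = 0.838) rests on PANC-1, since MIA PaCa-2 had no count.

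The inhibitors TIMP1 and TIMP2 had ratios below 1 in both lines, and neither passed the test. TIMP1 had 11781 and 11795 counts in MIA PaCa-2 and 5089 and 4798 in PANC-1 without and with CBC. Scaled for library size, the ratios were 0.900 (0.877 to 0.923) and 0.785 (0.754 to 0.816). In TPM, TIMP1 was 1381 and 1365 in MIA PaCa-2 and 585 and 519 in PANC-1. TIMP2 went from 14417 to 10296 counts in the MIA PaCa-2 line and from 3869 to 3926 in PANC-1, with ratios of 0.642 (0.626 to 0.659) and 0.844 (0.807 to 0.883). The log2 fold changes across both lines were -0.24 (standard error 0.18) for TIMP1 and -0.44 (standard error 0.19) for TIMP2, with adjusted p of 0.494 and 0.241 in edgeR's quasi-likelihood test.

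**Figure D2:**
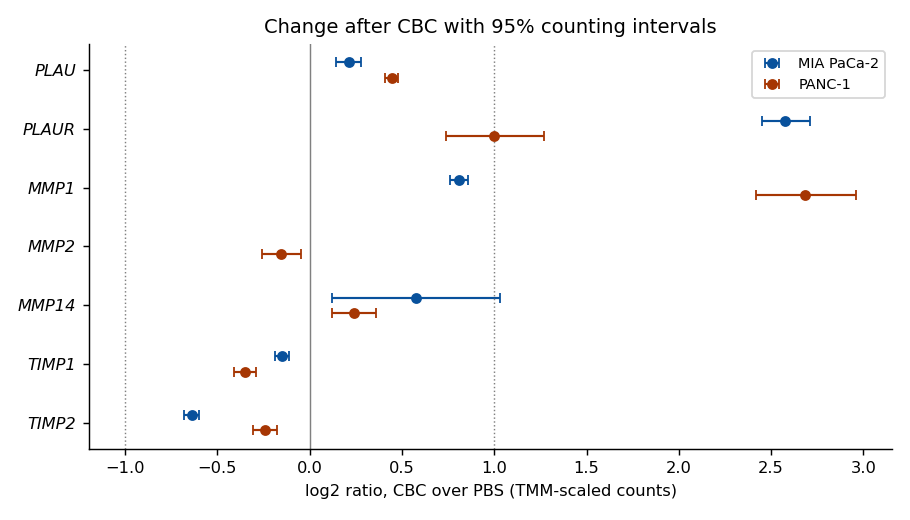
Log2 ratio of TMM-scaled counts, CBC over PBS, for the 7 genes that reached 1 CPM in at least 1 control (blue MIA PaCa-2, brown PANC-1), with 95% counting intervals as bars and a 2-fold change as dotted lines. PLAUR at 5.96-fold in MIA PaCa-2 and MMP1 at 6.42-fold in PANC-1 lie far to the right, TIMP1 and TIMP2 lie left of 0, and MMP2 has no MIA PaCa-2 point because it had no count there.

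The gap between the lines moved with treatment for MMP1 and PLAUR. MMP1 was 34.0-fold higher in MIA PaCa-2 than in PANC-1 in the controls and 9.29-fold (8.70 to 9.92) higher after CBC. PLAUR was 3.44-fold higher in MIA PaCa-2 in the controls and 10.2-fold (9.23 to 11.4) higher after CBC. The smaller gap of MMP1 and the wider gap of PLAUR exceed the counting error, but whether the responses of the lines differ could not be tested with 1 library each. For PLAU the gap was 3.61-fold and 4.24-fold, for MMP14 13.3-fold and 10.6-fold, for TIMP1 2.37-fold and 2.72-fold and for TIMP2 3.81-fold and 2.90-fold, in each case in the same direction before and after CBC.

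**Figure D3:**
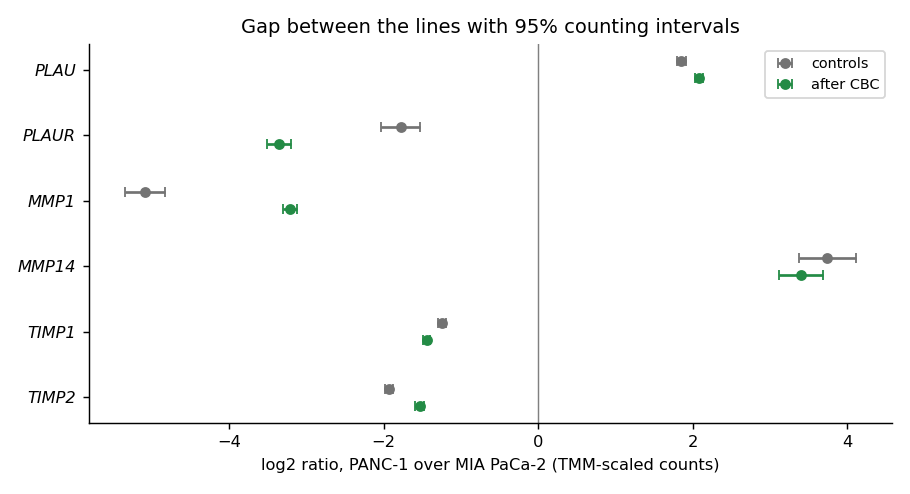
Log2 ratio of TMM-scaled counts, PANC-1 over MIA PaCa-2, in the controls (grey) and after CBC (green), with 95% counting intervals as bars. MMP1 moves toward 0, from a 34.0-fold to a 9.29-fold gap, PLAUR moves away from 0, from a 3.44-fold to a 10.2-fold gap, and the other 4 genes stay on their side.

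Ratios of TPM within a library do not depend on scaling between libraries. MMP1 over TIMP1 was 0.195 in MIA PaCa-2 given PBS and 0.380 with CBC, and 0.0136 and 0.111 in PANC-1, so it was 1.95 and 8.19 times the control value. MMP1 over TIMP2 was 0.685 and 1.87 in MIA PaCa-2 and 0.0768 and 0.584 in PANC-1. The summed TPM of MMP1, MMP2 and MMP14 over that of TIMP1, TIMP2 and TIMP3 went from 0.153 to 0.319 in MIA PaCa-2 and from 0.135 to 0.249 in PANC-1. With CBC, MMP1 made up 37.5% of the metalloproteinase sum in PANC-1, beside 34.1% for MMP2 and 28.4% for MMP14. PLAUR over PLAU was 0.138 and 0.710 in MIA PaCa-2 and 0.0111 and 0.0164 in PANC-1. These ratios are of messages, not of proteins or of enzyme activity.

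**Figure D4:**
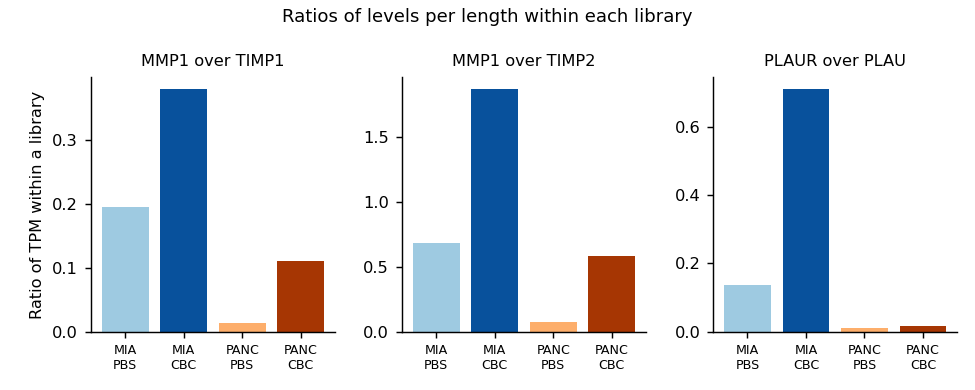
Ratio of TPM of 2 genes within each library, as bars from 0, for MMP1 over TIMP1, MMP1 over TIMP2 and PLAUR over PLAU. Each ratio is higher with CBC than in the control of its line, for example 0.380 against 0.195 for MMP1 over TIMP1 in MIA PaCa-2.

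Partners of the plasminogen system were read next, from a list of 21 genes. PLG itself, the source of plasmin, and the inhibitor SERPINB2 had no count in any library. Across both lines edgeR's quasi-likelihood test called 0 of the 12 list genes tested, with 3 at an unadjusted p under 0.05, and DESeq2 called 2. Over all 16381 genes, edgeR called 4.71% and had 3428 at an unadjusted p under 0.05, and DESeq2 called 1296. Of 10 genes read in each line, S100A10 and HGFAC were more than 2-fold lower with CBC in MIA PaCa-2 and THBS1 in PANC-1. HGFAC (47 to 5 counts) reached 1 CPM in the MIA PaCa-2 control alone, so it could enter only by falling. Over all genes, 8.97% were that much lower in MIA PaCa-2 and 7.03% in PANC-1.

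The surface partners that bind plasminogen had other patterns. S100A10, partner of annexin A2 in a plasminogen receptor, went from 8698 to 4297 counts in the MIA PaCa-2 line and from 5192 to 4484 in PANC-1, with ratios of 0.444 (0.428 to 0.461) and 0.719 (0.690 to 0.748) and an adjusted p of 0.0841 in edgeR and 0.0338 in DESeq2. ANXA2 had ratios of 1.21 and 0.874, and the plasminogen receptor PLGRKT 0.815 and 1.27. ENO1, a glycolytic enzyme that also binds plasminogen at the surface, had ratios of 0.877 and 0.789. LRP1, an endocytic receptor that clears protease complexes, had 0.888 and 0.915, MRC2, a collagen receptor that associates with PLAUR, had 0.825 and 1.02, and F12, a coagulation factor, had 0.777 and 0.662, in MIA PaCa-2 and PANC-1 in that order. THBS1, a matrix glycoprotein, was almost unread in MIA PaCa-2 (0 and 1 counts) and went from 365 to 83 counts in PANC-1, a ratio of 0.189 (0.147 to 0.241, adjusted p = 0.135 in edgeR). Between the lines, 7 of the 12 genes were called by edgeR, against 46.7% of all genes, 6 higher in PANC-1, among them MRC2, LRP1, F12 and THBS1, and SERPINE2 lower. With treatment left out, edgeR no longer called F12 (adjusted p = 0.0692).

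Of 20 other metalloproteinases, 8 reached 1 CPM in MIA PaCa-2 and 6 in PANC-1. More than 2-fold higher with CBC were MMP3, MMP10, MMP19, MMP24 and MMP25 in MIA PaCa-2 and MMP25 in PANC-1, and MMP11 was more than 2-fold lower in each. The shares of all genes past 2-fold were 11.5% higher and 8.97% lower in MIA PaCa-2, and 7.71% higher and 7.03% lower in PANC-1. The list's median log2 fold change was 1.28 in MIA PaCa-2 and -0.17 in PANC-1. In MIA PaCa-2, MMP3 (13 to 59 counts), MMP19 (5 to 188) and MMP25 (13 to 39) reached 1 CPM with CBC alone. The filter admits such genes only when they rise, so it pushes the number of higher genes and the median upward there. MMP10, a stromelysin that can activate other metalloproteinase precursors, went from 30 to 299 counts in the MIA PaCa-2 line, a ratio of 8.96 (6.15 to 13.5), and had 0 and 1 counts in PANC-1. It was the 1 of 9 genes called by edgeR across both lines (adjusted p = 0.0364), a call that rests on MIA PaCa-2, and DESeq2 called none of the 9 while edgeR had 3 at an unadjusted p under 0.05. MMP11 went from 280 to 92 and from 40 to 17 counts, with ratios of 0.295 (0.231 to 0.375) and 0.354 (0.188 to 0.638) and an adjusted p of 0.0770 (edgeR). In PANC-1, MMP11 reached 1 CPM in the control alone (1.76 against 0.622 CPM with CBC), so it could enter only by falling. Its PANC-1 interval also takes in falls of less than 2-fold. MMP17, a membrane-anchored enzyme, had ratios of 1.75 and 1.2, and MMP16, another one, was read in PANC-1 alone beyond 2 counts, at 627 and 496 counts.

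Of 28 ADAM and ADAMTS proteases, edgeR called 2 of the 15 tested, both higher with CBC, where 4.71% of all genes were called and 2.26% were higher. Of 13 genes read in each line, ADAM17, ADAMTS4, ADAMTS14 and ADAMTS17 were more than 2-fold higher and ADAM9 lower in MIA PaCa-2. There, ADAMTS14 (21 to 82 counts) and ADAMTS17 (8 to 37) reached 1 CPM with CBC alone, so they could enter only by rising. In PANC-1, ADAM17 and ADAMTS16 were more than 2-fold higher and ADAM19, ADAMTS3, ADAMTS14 and ADAMTS15 lower. ADAMTS3 (85 to 12 counts) reached 1 CPM in the PANC-1 control alone, so it could enter only by falling. Over all genes, 11.5% were more than 2-fold higher and 8.97% lower in MIA PaCa-2, and 7.71% and 7.03% in PANC-1. ADAM17, the sheddase of tumour necrosis factor and of several growth factor precursors, rose from 1710 to 4088 counts in the MIA PaCa-2 line and from 2005 to 5426 in PANC-1. The ratios were 2.15 (2.03 to 2.28) and 2.25 (2.14 to 2.37), and the log2 fold change was 1.14 (standard error 0.20, adjusted p = 0.0240, edgeR). ADAMTS4, an aggrecanase, went from 99 to 1741 counts in the MIA PaCa-2 line and had 1 and 0 counts in PANC-1, so its call (adjusted p = 0.0213, edgeR) rests on MIA PaCa-2. ADAMTS15 had at most 1 count in MIA PaCa-2 and went from 2331 to 911 counts in PANC-1 (adjusted p = 0.0880, edgeR).

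Among 20 other inhibitors and partners, edgeR called CLDN1 alone of 15 tested, where 4.71% of all genes were called and 2.26% were higher. More than 2-fold higher with CBC were SERPINA1 and CLDN1 of 11 genes read in MIA PaCa-2 and CLDN1 of 14 read in PANC-1. Over all genes, 11.5% were that much higher in MIA PaCa-2 and 7.71% in PANC-1. CLDN1, a tight junction protein that can recruit metalloproteinase precursors, rose from 687 to 3776 counts in the MIA PaCa-2 line and from 412 to 1374 in PANC-1, with ratios of 4.94 (4.55 to 5.37) and 2.78 (2.48 to 3.11) and an adjusted p of 0.0155 (edgeR). CD44, a hyaluronan receptor that can dock metalloproteinases, went from 33487 to 21337 and from 37550 to 30084 counts (adjusted p = 0.0548, edgeR), and DESeq2 called it. RECK, a membrane inhibitor of metalloproteinases, had no count in MIA PaCa-2 and 550 and 530 counts in PANC-1, the same division between the lines as MMP2. It was named after its values were seen. SPOCK1, a matrix proteoglycan, had 3 and 11 counts in MIA PaCa-2 and 1017 and 1115 in PANC-1.

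Of 18 secreted or membrane serine proteases, edgeR called PRSS23 alone of 7 tested, where 4.71% of all genes were called and 2.45% were lower. More than 2-fold lower with CBC were KLK5 and KLK7 of 6 genes read in MIA PaCa-2 and PRSS23 of 3 read in PANC-1. Over all genes, 8.97% were that much lower in MIA PaCa-2 and 7.03% in PANC-1. PRSS23 fell from 802 to 445 counts in the MIA PaCa-2 line and from 23688 to 10191 in PANC-1, with ratios of 0.499 (0.443 to 0.561) and 0.358 (0.350 to 0.366) and an adjusted p of 0.0213 (edgeR). KLK6 marked the lines, with 7428 counts in the MIA PaCa-2 control and 1 in the PANC-1 control, and went to 4252 counts with CBC in MIA PaCa-2 (adjusted p = 0.127, edgeR). HTRA1 had ratios of 0.543 and 0.796 (adjusted p = 0.356, edgeR).

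**Figure D5:**
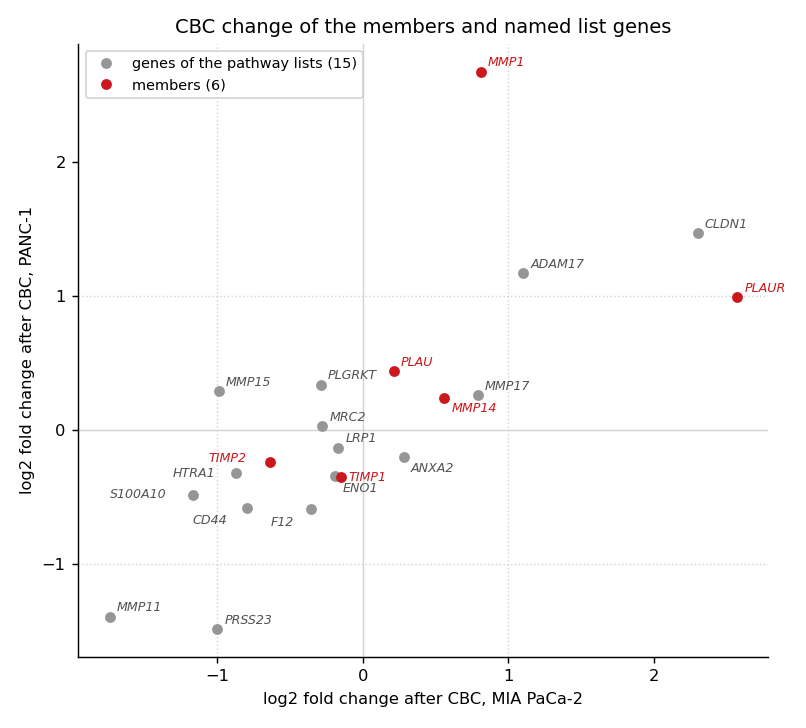
Fitted log2 fold change after CBC in MIA PaCa-2 (horizontal) and PANC-1 (vertical) for the members (red) and the named genes of the lists (grey) that reached 1 CPM in each line, with dotted lines at a 2-fold change. PLAUR, MMP1, CLDN1 and ADAM17 lie to the upper right, MMP11 and PRSS23 to the lower left, and PLAUR (2.57 and 0.99) and MMP1 (0.81 and 2.67) lie on either side of the diagonal.

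The 4-library patterns of PLAUR and MMP1 had no other gene within the radius used. Likeness was the Euclidean distance of log2 CPM after removing each gene's mean, over 4 libraries and 10067 genes whose mean reached 10 CPM. Within a distance of 0.5 there was no gene for PLAUR or MMP1, while there were 15 for MMP14, 20 for MMP2, 103 for TIMP2, 184 for PLAU and 414 for TIMP1. The nearest to PLAUR were ZNF554 (distance 0.58) and MAFF (0.65), and the nearest to MMP1 were JMY (0.72) and ABCA10 (0.86). MMP2 had SRPX2 (0.14) and KLHL9 (0.18) nearest, and MMP14 had SHTN1 (0.20) and NABP1 (0.21). PLAU lay nearest C10orf88 (0.06) and BBS4 (0.11), TIMP1 nearest SNHG3 (0.08) and RRP1B (0.09), and TIMP2 nearest KLHL26 (0.09) and ZNF395 (0.10). The distance was not scaled for spread, so at a fixed radius genes that vary little tend to have more neighbours. The share of all genes without a neighbour was not counted, so their absence is not a trait particular to PLAUR or MMP1. SRPX2 and KLHL9, like MMP2, had no count in MIA PaCa-2. With 4 libraries such distances describe these libraries only.

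Some members share bases with other genes, and whether strand was used in counting is not given in the sources used here. PLAU shares 915 exon bases with the antisense C10orf55, which had 27 to 44 counts, and MMP1 shares 223 with the antisense WTAPP1, which had at most 2 counts. TIMP2 shares 224 exon bases with CEP295NL on the same strand, which had 375, 365, 33 and 35 counts in the MIA PaCa-2 control and CBC and the PANC-1 control and CBC libraries, and 367 with an antisense transcript of at most 2 counts. MMP2 shares 174 exon bases with an unnamed transcript on its strand that had at most 7 counts. These counts are small beside those of PLAU, MMP1 and TIMP2 in all libraries and of MMP2 in PANC-1. They do not show how many reads on the shared bases were left out of the members, since the handling of such reads is not given.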

How the data were processed

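Poly(A) RNA libraries (NEBNext Ultra II Directional) were sequenced by the authors as read pairs. Per the methods, reads were trimmed with cutadapt 2.7, aligned with STAR (GRCh38) and assigned to Ensembl genes by HTSeq. The deposited values used here are those raw counts. The aligner version and the strand setting of the counting are not given in the sources used here. The deposited normalized signal equals these counts scaled by TMM library size, checked with a largest relative difference of 6.84e-09.

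Of 58233 identifiers, 57392 matched a symbol. Positions and exon lengths came from GENCODE 44 (GRCh38). edgeR 4.0.16 in R 4.3.3 gave log2 fold changes (TMM over 4 libraries, prior count 2) and the quasi-likelihood test on 16381 genes, with line or treatment as a block. Each gene had 1 residual degree of freedom, and its variance was drawn toward that of other genes. A 2-fold change was read where 1 of the compared libraries reached 1 CPM. Libraries of a line were paired through the line, and their deviations correlated at 0.923 across genes. The fit was tested on simulated data. The 95% intervals came from scipy 1.17.1. Samples were grouped by their titles, with 1 library per group. Alternatives were DESeq2 1.42.0, other scalings, prior count 0.5, the deposited signal with a pseudocount of 1, other filters and models without the block.

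The members and lists were chosen with earlier results of these data known. Named from the plasminogen and metalloproteinase lists were genes with at least 10 CPM in a library, and from each other list the 3 largest mean changes among genes with a mean of 10 CPM. A gene that the rule also names is not reported here. The ratios of TPM, the gap between the lines and the list genes named only for passing 2-fold were chosen after the values were seen.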

Additional observations from a re-analysis of the deposited data

Results flagged for a closer look

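Among the members and the list genes named by the rule, 3 list genes were found for which the counting intervals of the lines lay on opposite sides of no change after CBC. With 1 library per condition the difference between the lines was not tested. MMP15, a membrane-anchored metalloproteinase, had in MIA PaCa-2 a log2 fold change of -0.99 (378 to 211 counts) and in PANC-1 a change of 0.29 (172 to 253 counts). The PANC-1 interval of MMP15 (log2 0.01 to 0.58) only just excluded no change. ANXA2 had 0.28 and -0.20, and PLGRKT had -0.29 and 0.34, in the same order of lines. By TPM, ANXA2 in PANC-1 was 485 without and 480 with CBC, so the size of its fall depends on the scaling. None of the 9 members did so.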

How the results depend on the processing

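The number of members past 2-fold was 2 in place of 1 in MIA PaCa-2 without the filter on low counts, where PLAT with 0 and 4 counts is added. In PANC-1 it was 2 in place of 1 under library totals and 2 with a prior count of 0.5, where PLAUR crossed the threshold. Across both lines edgeR called 1 member, 2 without its filter, and 0 with no replicate block for the line, where 0 members had an unadjusted p under 0.05, and DESeq2 called 2 (PLAUR and MMP1). The calls of MMP10, ADAMTS4, ADAM17, CLDN1 and PRSS23 were also lost without the block (adjusted p of 1 each in edgeR). Over all genes the CBC test called 771, 2063 without the filter, 1296 with DESeq2 and 0 without the block, with 354 then at an unadjusted p under 0.05. The test between the lines called 7652, or 4251 with treatment left out. The count between the lines was 7 in the controls under all alternatives, and over both treatments 7, or 6 with treatment left out. Library totals moved the median of all genes by -0.132 (log2) between the control libraries, and ENO1 went from 0.12 to -0.02. The deposited signal with a pseudocount of 1 gave a log2 difference of 6.04 in place of 9.62 for MMP2. No member changed direction under these alternative scalings of the comparisons it was read in. TPM was not among them, and by TPM MMP2 in PANC-1 went from 51.8 to 52.6, against a ratio of 0.896 by TMM. With 1 library per condition no library could be left out within a line, and the variation between cultures of a line was not measured.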
